A study of Mus musculus with 36 samples.

Results

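The core circadian clock genes of the stria vascularis were followed through adult life. The stria vascularis is the vascular epithelium of the cochlear lateral wall that feeds potassium to the endolymph and sets up the endocochlear potential. The genes were chosen by name, and all 10 were found among the 48709 genes of the deposited table: the activators Arntl (encoding BMAL1) and Npas2, the repressors Per1, Per2, Per3, Cry1, Cry2 and Ciart (also known as Chrono), the nuclear receptor Nr1d1 (encoding REV-ERBα) and the output activator Dbp. RNA sequencing was done on 9 libraries, 3 each (A, B and C) from mice aged 1, 9 and 26 months, with no treatment and no transgene in any group. The mice were of the inbred strain given as CBA in the labels and as CBA/J in the study, which keeps its hearing until late in life, and were of either sex. Each library was a pool of isolated marginal, intermediate and basal cells from 4 cochleae of 2 mice, freed by enzyme and trituration. By the labels the 3 libraries of an age are independent. The study's methods mention 3 biological replicates for the mice, but libraries from fewer biological replicates that were repeated technically, so p-values measure only the spread between these libraries, which may be technical. The time of day at which cochleae were collected is not given in the sources used here, so the age of a group and its collection time cannot be told apart.

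The clock is a feedback loop of transcription that runs in most mammalian cells, the cochlea of the mouse included. BMAL1 pairs with CLOCK, or with its relative NPAS2, binds E-box sequences and drives the Per, Cry, Nr1d1, Ciart and Dbp genes. The PER and CRY proteins return to the nucleus and block the activator pair, and CIART also binds BMAL1 and represses it. REV-ERBα closes a further loop by repressing Arntl and Npas2 at RORE sequences, where ROR proteins act as activators, and DBP drives genes with D-boxes, among them the Per genes. Because of this wiring, transcripts of Arntl and Npas2 peak in most tissues at about the opposite time of day to those of Nr1d1, Dbp and the Per genes.

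The dissected tissue carried markers of stria and of other tissues. Summed over each list, marginal cell markers ranged from 2499 to 3169 RPKM (mapped reads scaled by transcript length and by library size) per library. Intermediate cell markers ranged from 4016 to 4221 RPKM, 7 bone markers from 6257 to 12930 RPKM and 7 red cell markers from 366 to 3186 RPKM. The bone sum rose from 9 to 26 months with Spp1 alone of its list, as given below. The 10 hair cell markers, 1 of them (Atoh1) at 0 in every library, summed to between 0.650 and 3.18 RPKM. Such sums can rest mostly on the most abundant markers of a list and do not compare amounts of tissue. Genes at or above 0.1 RPKM numbered 14818 to 15315 per library. Some libraries of an age were near-identical: over the 450 genes averaging 100 RPKM or more, pairs differed by a median coefficient of variation of 0.796 to 1.40% at 26 months, 1.19% for B and C at 1 month and 1.37% for A and C at 9 months. Library A at 1 month and library B at 9 months stood apart from the others of their age, by 4.13 to 5.07% and 7.54 to 8.44%. The female-specific X-linked Xist had 0.225 to 0.3 RPKM at 1 month, 1.18 to 2.05 at 9 months and 0.550 to 0.625 at 26 months, while the Y-linked Ddx3y had 6.0 to 7.05, 4.45 to 7.55 and 12.2 to 12.3 RPKM, and the make-up of the pools by sex and age cannot be told apart.

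The promoters of the members show which clock elements lie close to their starts. RefSeq promoters of GRCm38.p6, windows of 300 bases that lie mostly before a start, were matched by symbol for 9 of the 10 members, with 11 starts in all (Per2 was not matched). Both strands were searched for the E-box CACGTG, its E-prime variant CACGTT, the D-box TTATGTAA or TTACGTAA, the RORE core TAGGTCA and the cAMP response element TGACGTCA. These motifs share letters and can overlap, but no matches overlapped in the windows of the members. Of the 32851 promoters in the table, 7.15% held the E-box, 4.68% the E-prime box, 1.06% the D-box, 2.61% the RORE core and 1.79% the cAMP response element. Among the 9 matched members, 3 held an E-box, 3 an E-prime box, 1 a D-box, 1 the RORE core and 0 the cAMP response element. Ciart held 3 E-boxes, at −116, −58 and −44 counted from the start, a number reached by 0.0883% of all promoters (29 of 32851). The promoters of Ciart (chr3:95882179-95882478, minus strand), Per1 (chr11:69098699-69098998, plus strand), Cry1 (chr10:85185005-85185304, minus strand), Per3 (chr4:151044616-151044915, minus strand) and Arntl (chr7:113207261-113207560, plus strand) are shown 5′ to 3′ as members that differ in the elements they carry or in the number of them, with each motif in capitals.
Ciart: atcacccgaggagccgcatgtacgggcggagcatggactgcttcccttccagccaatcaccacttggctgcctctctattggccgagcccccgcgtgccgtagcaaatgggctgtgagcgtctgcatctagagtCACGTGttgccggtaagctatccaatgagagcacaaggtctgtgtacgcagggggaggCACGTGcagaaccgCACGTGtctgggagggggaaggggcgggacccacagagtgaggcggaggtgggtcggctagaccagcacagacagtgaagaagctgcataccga
Per1: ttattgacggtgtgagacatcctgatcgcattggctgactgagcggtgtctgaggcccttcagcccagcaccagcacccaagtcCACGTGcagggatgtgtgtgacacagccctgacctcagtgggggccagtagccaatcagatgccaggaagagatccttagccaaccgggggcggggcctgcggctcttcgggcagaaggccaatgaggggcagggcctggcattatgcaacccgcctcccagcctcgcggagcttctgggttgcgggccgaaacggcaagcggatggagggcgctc
Cry1: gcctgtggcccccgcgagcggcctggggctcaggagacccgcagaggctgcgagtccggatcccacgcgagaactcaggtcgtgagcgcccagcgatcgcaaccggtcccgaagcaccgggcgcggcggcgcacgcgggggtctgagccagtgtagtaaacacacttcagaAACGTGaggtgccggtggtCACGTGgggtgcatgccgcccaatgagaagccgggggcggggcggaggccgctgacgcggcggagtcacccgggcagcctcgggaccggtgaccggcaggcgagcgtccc
Per3: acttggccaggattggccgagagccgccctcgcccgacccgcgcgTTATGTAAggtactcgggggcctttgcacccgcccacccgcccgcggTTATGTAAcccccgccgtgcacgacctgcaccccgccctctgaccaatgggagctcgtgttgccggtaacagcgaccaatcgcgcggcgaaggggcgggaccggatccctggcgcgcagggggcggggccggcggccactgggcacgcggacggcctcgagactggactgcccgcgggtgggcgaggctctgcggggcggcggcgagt
Arntl: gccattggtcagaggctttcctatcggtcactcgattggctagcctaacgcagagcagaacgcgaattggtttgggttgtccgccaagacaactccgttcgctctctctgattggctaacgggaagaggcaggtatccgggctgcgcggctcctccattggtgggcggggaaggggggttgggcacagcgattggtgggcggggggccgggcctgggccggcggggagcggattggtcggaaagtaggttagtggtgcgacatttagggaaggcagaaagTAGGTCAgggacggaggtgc
In Cry1 the capitals mark an E-prime box read on the opposite strand at −79 and an E-box at −60. In Per1 they mark an E-box at −166, in Per3 paired D-boxes at −205 and −158, and in Arntl a RORE core at 31 within the transcribed part. Cry2 and Nr1d1 held an E-prime box at −166 and −28. No motif was found in these windows of Dbp and Npas2, of the other Arntl start, whose window overlaps the one printed, or of the other Per1 start. A match is a description of the letters and not evidence of binding.

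Arntl and Npas2, the activators, were highest at 9 months. Arntl (chromosome 7, 113207465 to 113314126, plus strand, GRCm38) had 3.55, 3.6 and 3.375 RPKM in libraries A, B and C at 1 month, 6.975, 6.25 and 6.775 RPKM at 9 months and 3.8, 3.975 and 3.9 RPKM at 26 months. Every 9-month library lay above every other library, and the 1-month and 26-month libraries lay close together without overlap. The means were 3.51 ± 0.118, 6.67 ± 0.374 and 3.89 ± 0.0878 RPKM (SD, n = 3 libraries, as for all later means). On the log2(RPKM + 0.1) scale, on which all fold changes are given and which understates changes at low levels, Arntl differed by 0.91 (SE 0.0546) between 9 and 1 month and by −0.76 between 26 and 9 months, both short of the threshold of 1 used to call a change (limma adjusted p = 6.72e-07 and 3.84e-06). Between 26 and 1 month the difference was 0.15, and it turned to −0.20 with quantile normalization, −0.11 with median of ratios scaling and −0.30 with the length trend removed.

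Npas2 (chromosome 1, 39193731 to 39363236, plus strand) encodes the partner that can take the place of CLOCK and was the least abundant member at each age. It had 0.5, 0.425 and 0.45 RPKM at 1 month, 1.2, 1.3 and 1.3 RPKM at 9 months and 0.575, 0.475 and 0.55 RPKM at 26 months. The 9-month libraries stood above the rest, while 1 and 26 months overlapped. Npas2 rose 2.45-fold from 1 to 9 months (log2 fold change 1.29, SE 0.0916, limma adjusted p = 1.84e-06) and fell 2.16-fold from 9 to 26 months (log2 fold change −1.11, adjusted p = 8.69e-06). Both calls were lost with a pseudocount of 1 RPKM (0.64 and −0.56) and with quantile normalization (0.83 and −0.97), and the first also with the length trend removed (0.94). Between 26 and 1 month the difference was 0.18 (limma adjusted p = 0.107), and it was −0.14, −0.037 and −0.14 with quantile normalization, median of ratios scaling and the length trend removed.

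In bulk RNA, fewer cells of a type and less RNA per cell cannot be told apart. Several marker sums were also highest at 9 months. Over 11 markers of the spiral ligament's fibrocytes, none at 0, the summed level ranged from 669 to 676 RPKM at 1 month, 2146.5 to 2225.8 RPKM at 9 months and 969 to 983 RPKM at 26 months, with 7 of 11 called higher from 1 to 9 months and 9 of 11 lower from 9 to 26 months. Basal cell markers, 8 in all and none at 0, summed to 1032 to 1042, 1680 to 1723 and 931 to 945 RPKM, with 4 of 8 called lower at 26 than at 9 months. Of all genes, 10.1% were called higher from 1 to 9 months and 4.05% lower from 9 to 26 months. Marker sums of marginal cells, of pericytes and smooth muscle and of hair cells were highest at 9 months too, and those of the other lists were not. The part of these cell types in the levels of Arntl and Npas2 was not tested.

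Per1 and Per2, which encode the PERIOD proteins that carry the repressor complex, rose most from 1 to 9 months. Per1 (chromosome 11, 69095217 to 69109960, plus strand) had 0.8, 0.925 and 0.875 RPKM at 1 month, 3.45, 3.675 and 3.475 RPKM at 9 months and 4.825, 4.625 and 4.55 RPKM at 26 months. The 3 ages did not overlap, and the step from 1 to 9 months was much the larger. Per1 rose 3.76-fold from 1 to 9 months (log2 fold change 1.91, SE 0.0631, limma adjusted p = 3.41e-08) and 4.94-fold from 1 to 26 months (log2 fold change 2.304, adjusted p = 7.79e-09). Between 26 and 9 months the log2 fold change was 0.39 (adjusted p = 0.000592, and 0.120 with near-identical libraries averaged).

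Per2 (chromosome 1, 91415982 to 91459324, minus strand) had 0.875, 1.1 and 1.025 RPKM at 1 month, 3.85, 3.475 and 3.725 RPKM at 9 months and 7.45, 7.275 and 7.575 RPKM at 26 months. Its ages did not overlap, and the mean at 26 months was 7.43 times that at 1 month, the widest range among the members after Ciart. Per2 rose 3.45-fold from 1 to 9 months (log2 fold change 1.79, SE 0.0785, limma adjusted p = 1.22e-07) and 6.87-fold from 1 to 26 months (log2 fold change 2.78, adjusted p = 9.07e-09). From 9 to 26 months the log2 fold change of 0.99 was just short of the threshold (limma adjusted p = 6.63e-06). It passed the threshold, with 1.01 to 1.10, with a pseudocount of 0.01 RPKM, quantile normalization, median of ratios scaling, the length trend removed or near-identical libraries averaged, and without any one of 9-month library A (1.03), 9-month library C (1.003) or 26-month library B (1.01).

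Per3 (chromosome 4, 151003652 to 151044665, minus strand), the third PERIOD gene and the one whose promoter held the D-boxes shown, varied least of the 10 members. It had 1.4, 1.7 and 1.6 RPKM at 1 month, 1.775, 1.75 and 1.825 RPKM at 9 months and 2.225, 2.1 and 2.2 RPKM at 26 months. Its log2 fold changes were 0.18 (9 against 1 month), 0.27 (26 against 9 months) and 0.45 (26 against 1 month), none of them called. The direction from 1 to 9 months rested on the scaling, with −0.33 after quantile normalization, −0.11 after median of ratios scaling and −0.42 with the length trend removed. That from 1 to 26 months turned to −0.055 with the length trend removed. Summed over the PERIOD genes, the level was 3.43 ± 0.330, 9.00 ± 0.0901 and 14.3 ± 0.254 RPKM at 1, 9 and 26 months.

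**Figure D1:**
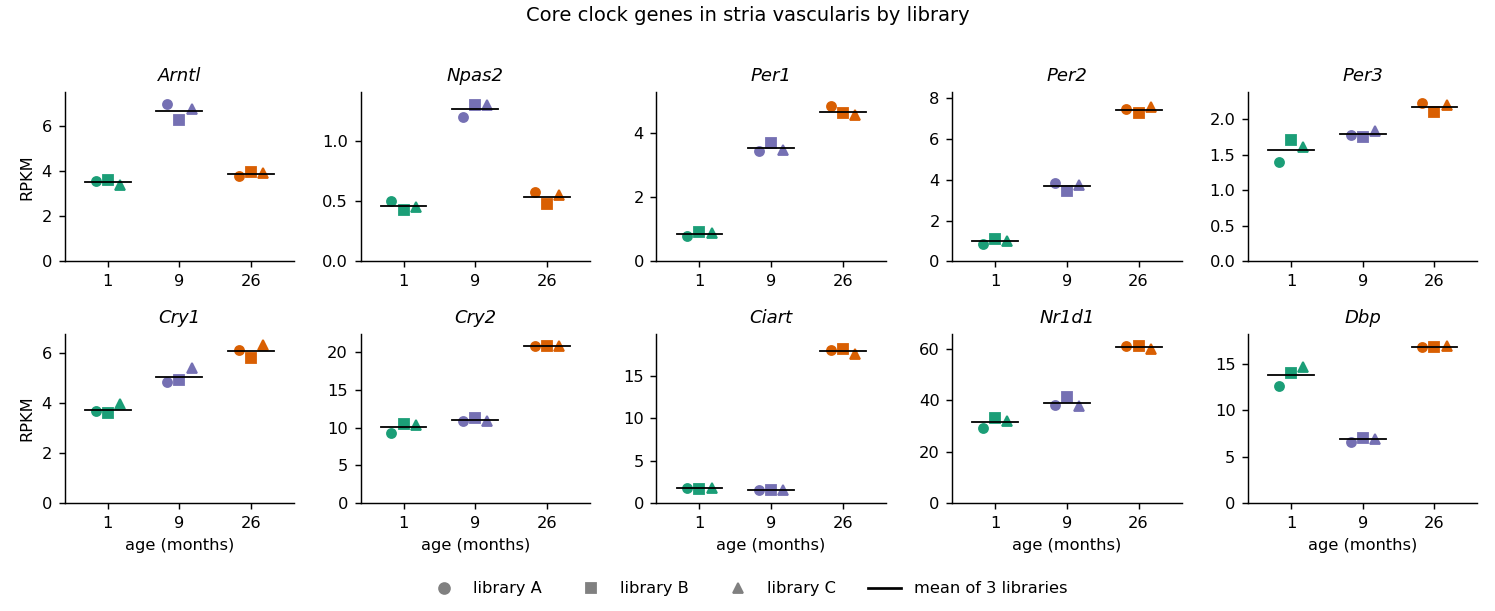
RPKM of each member (vertical axis, linear and from 0, own scale for each gene) against age in months, with 1 symbol per library and a line at the mean of 3 libraries. Arntl and Npas2 peaked at 9 months, with means of 6.67 and 1.27 RPKM, and Ciart stood at 18.0 RPKM at 26 months against 1.74 and 1.58 at 1 and 9 months, while the small steps of Per3, Cry1 and Cry2 from 1 to 9 months were at or below 0 with quantile normalization.

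The cryptochromes, the partners of the PER proteins that block BMAL1 and CLOCK most strongly, differed from each other in timing. Cry1 (chromosome 10, 85131700 to 85185064, minus strand) had 3.675, 3.6 and 3.95 RPKM at 1 month, 4.85, 4.925 and 5.4 RPKM at 9 months and 6.125, 5.825 and 6.325 RPKM at 26 months, in steps of similar size without overlap. Its log2 fold changes were 0.42, 0.26 and 0.69 for 9 against 1, 26 against 9 and 26 against 1 month, and none was called. With quantile normalization the first was −0.000132.

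Cry2 (chromosome 2, 92403646 to 92434043, minus strand) had 9.325, 10.525 and 10.3 RPKM at 1 month, 10.85, 11.275 and 10.9 RPKM at 9 months and 20.775, 20.775 and 20.75 RPKM at 26 months. The 1-month and 9-month libraries lay side by side, and the 26-month libraries were close to 2-fold higher and nearly equal to each other. Cry2 rose 2.06-fold from 1 to 26 months (log2 fold change 1.04, SE 0.0495, limma adjusted p = 1.59e-07). This call was lost with a pseudocount of 1 RPKM (0.98), quantile normalization (0.82), median of ratios scaling (0.78), the length trend removed (0.64) and without 1-month library A (0.99). From 9 to 26 months the log2 fold change was 0.91 (adjusted p = 7.00e-07), short of the threshold. From 1 to 9 months it was 0.13, or −0.11, −0.17 and −0.33 with quantile normalization, median of ratios scaling and the length trend removed.

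The ratio of Cry2 to Cry1 was 2.69 ± 0.206 at 1 month, 2.18 ± 0.144 at 9 months and 3.41 ± 0.144 at 26 months, with no overlap between ages. The sum of both cryptochromes was 13.8 ± 0.688, 16.1 ± 0.321 and 26.9 ± 0.24 RPKM. The ratio of Per2 to Cry2 was 0.0993 ± 0.00534 at 1 month, 0.335 ± 0.0241 at 9 months and 0.358 ± 0.00746 at 26 months, so that the adult and old libraries overlapped and both stood above the young ones. Cry2 shares 295 exon bases (4.67% of its exons) with the antisense transcript D930015M05Rik, which had 0.2, 0.133 and 0.267 RPKM, and the sources used here do not state whether reads were counted by strand.

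Ciart (chromosome 3, 95878503 to 95882251, minus strand), the repressor with the 3 E-boxes printed above, showed the widest range. It had 1.825, 1.65 and 1.75 RPKM at 1 month, 1.6, 1.575 and 1.55 RPKM at 9 months and 18.1, 18.2 and 17.625 RPKM at 26 months. The old libraries stood far above all others, and the lowest of them was above the highest young one by more than any spread within an age. Ciart rose 10.8-fold from 9 to 26 months (log2 fold change 3.43, SE 0.0505, limma adjusted p = 3.38e-10), the 9th highest of 15806 log2 fold changes, and 9.82-fold from 1 to 26 months (log2 fold change 3.30, adjusted p = 3.03e-10). Over 23 alternative settings the first value ranged from 2.88 to 3.58, with a largest adjusted p of 0.00369 when near-identical libraries were averaged. Between 9 and 1 month the log2 fold change was −0.14 (adjusted p = 0.0377), which was not called.

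Markers of macrophages were also highest at 26 months. Of 16 listed, 15 were in the table and none was at 0, and their sum ranged from 212 to 220 RPKM at 1 month, 391 to 408 RPKM at 9 months and 1246 to 1267 RPKM at 26 months, with 7 of 15 called higher from 9 to 26 months, where 3.28% of all genes were. Their part in the level of Ciart was not tested.

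Nr1d1 (chromosome 11, 98767932 to 98775333, minus strand), the repressor of Arntl, was the most abundant member at each age. It had 29.225, 33 and 31.825 RPKM at 1 month, 38.125, 41.15 and 37.7 RPKM at 9 months and 60.875, 61.125 and 59.95 RPKM at 26 months. The ages did not overlap and the larger step lay between 9 and 26 months. Its log2 fold changes were 0.31 (9 against 1 month), 0.64 (26 against 9 months, limma adjusted p = 8.84e-06) and 0.95 (26 against 1 month, adjusted p = 3.79e-07), all short of the threshold. Nr1d1 shares 263 exon bases (8.55% of its exons) with Thra, a thyroid hormone receptor gene on the opposite strand that had 6.18, 14.7 and 7.34 RPKM at the 3 ages, another order than that of Nr1d1.

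Dbp (chromosome 7, 45705088 to 45710203, plus strand), the PAR bZIP factor driven by BMAL1, was lowest at 9 months. It had 12.65, 14.075 and 14.725 RPKM at 1 month, 6.6, 7.05 and 6.95 RPKM at 9 months and 16.85, 16.85 and 16.9 RPKM at 26 months. In the deposited values the adult libraries stood below all others, and the young ones below the old ones. From 1 to 26 months the log2 fold change was 0.29, or only 0.05 relative to the median of all genes. Dbp rose 2.44-fold from 9 to 26 months (log2 fold change 1.28, SE 0.0573, limma adjusted p = 2.36e-07). Between 9 and 1 month its log2 fold change was −0.996, close to the threshold but not past it (limma adjusted p = 5.25e-07). It was called lower with a pseudocount of 0.01 RPKM (−1.01), quantile normalization (−1.25), median of ratios scaling (−1.30) and the length trend removed (−1.15), and without any one of 1-month library A (−1.06), 9-month library B (−1.02) or 9-month library C (−1.005). Dbp shares 539 exon bases (18.0% of its exons) with Sphk2 on the opposite strand, a sphingosine kinase gene that was also lowest at 9 months, with 11.2, 9.04 and 12.5 RPKM. Markers of blood, none at 0, were lowest at 9 months too: 7 red cell markers summed to 3070 to 3186 RPKM at 1 month, 366 to 457 at 9 months and 670 to 714 at 26 months, with 7 of 7 called lower from 1 to 9 months and 3 of 7 higher from 9 to 26 months. The 9 neutrophil markers summed to 95.4 to 107, 7.35 to 9.475 and 24.45 to 24.5 RPKM, with 9 of 9 called lower and 7 of 9 higher in the same steps. The 7 bone markers, none at 0, summed to 12236 to 12930, 6257 to 6876 and 7609 to 7766 RPKM, with 2 called lower and 2 higher from 1 to 9 months, and 2 lower and 0 higher by limma from 9 to 26 months. Of all genes, 10.1% were called higher and 1.47% lower from 1 to 9 months, and 3.28% and 4.05% from 9 to 26 months. In the latter step Spp1 alone of the bone markers rose (log2 fold change 0.21), and the median of that list was −0.46. The rise of the bone sum from 9 to 26 months was thus that of Spp1 and not of the list. The highest level lay at 1 month for all 3 sums and, in the deposited values, at 26 months for Dbp. Their part in the level of Dbp was not tested.

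The order of levels, which RPKM allows since it is scaled by transcript length, changed with age. At 1 month it ran from Nr1d1 (31.4 RPKM) over Dbp (13.8) and Cry2 (10.05) to Cry1, Arntl, Ciart, Per3, Per2, Per1 and Npas2 (0.458). The neighbours Cry1 and Arntl, Ciart and Per3, and Per2 and Per1 overlapped between libraries. At 9 months Arntl (6.67 RPKM) stood beside Dbp (6.87 RPKM), with overlap, and Per2 overlapped Per1. At 26 months no neighbours overlapped: Ciart (18.0 RPKM) had moved from the sixth place at 1 month and the ninth at 9 months to the third, and Arntl from the fourth at 9 months to the eighth. Nr1d1 lay above 90.1% of the tested genes at 1 month and 94.9% at 26 months, and Npas2 above 24.2% and 23.0%. The 10 members together summed to 68.1 ± 3.72, 80.4 ± 1.73 and 141 ± 0.655 RPKM.

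Across the 3 ages, the libraries of no 2 ages overlapped in the deposited values for 9 of 10 members, the exception being Npas2. Of all tested genes, 35.4% had no such overlap. The order of 1 below 9 below 26 months without overlap held for 6 members (Per1, Per2, Per3, Cry1, Cry2 and Nr1d1) and for 12.9% of all genes, but that of Per3, Cry1 and Cry2 from 1 to 9 months rests on the scaling as given above. The step of Nr1d1 from 1 to 9 months lay close to the median of all genes, at 0.04 relative to it. Arntl alone was highest at 9 months without overlap, as were 15.4% of all genes, and Ciart and Dbp were lowest at 9 months, as were 3.82%. All 10 members passed the moderated F-test over the ages, but so did 86.3% of all genes.

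What sets old stria apart from adult stria was read from 26 against 9 months. Of the 10 members, 2 (Ciart and Dbp) were called higher, where 3.28% of all 15806 genes were, and 1 (Npas2) was called lower, where 4.05% were. The other repressors had log2 fold changes between 0.26 (Cry1) and 0.99 (Per2), and both activators lay below 0. Without the fold threshold, 8 members passed the adjusted p with a higher level and 2, Arntl and Npas2, with a lower one, as did 29% and 33.7% of all genes. The median of all genes was −0.03, so the shift of the whole table was small here.

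What sets adult stria apart from young stria was read from 9 against 1 month. Per1, Per2 and Npas2, 3 of 10 members, were called higher, where 10.1% of all genes were, and 0 were called lower, where 1.47% were. Without the fold threshold limma called 8 higher and 2 lower, the latter Dbp and Ciart, beside 54.7% and 17.4% of all genes. Over all genes the deposited values had a median of 0.27 here, and the split of all calls, 1594 higher and 233 lower, became 531 and 464 after quantile normalization, 748 and 395 with median of ratios scaling and 629 and 296 with the length trend removed. Relative to that median, Per1 stood at 1.64, Per2 at 1.51, Npas2 at 1.02, Arntl at 0.63, Cry1 at 0.15 and Nr1d1 at 0.04. Per3 stood at −0.09, Cry2 at −0.14, Ciart at −0.41 and Dbp at −1.27.

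For 26 against 1 month, the comparison over the whole span, 4 of 10 members (Ciart, Per2, Per1 and Cry2) were called higher, where 9.92% of all genes were, and 0 lower, where 2.51% were. Without the fold threshold limma called 9 higher and 0 lower, beside 52.7% and 21.2% of all genes, and Npas2 was the one left. The median of all genes was 0.24, and the split of 1568 higher and 396 lower became 802 and 740 after quantile normalization, 927 and 692 with median of ratios scaling and 882 and 509 with the length trend removed. Relative to the median, Ciart stood at 3.05, Per2 at 2.54, Per1 at 2.06, Cry2 at 0.80, Nr1d1 at 0.71 and Cry1 at 0.45, and Per3, Dbp, Npas2 and Arntl lay between −0.10 and 0.21. The 3 comparisons share their libraries in pairs and are given side by side for that reason.

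**Figure D2:**
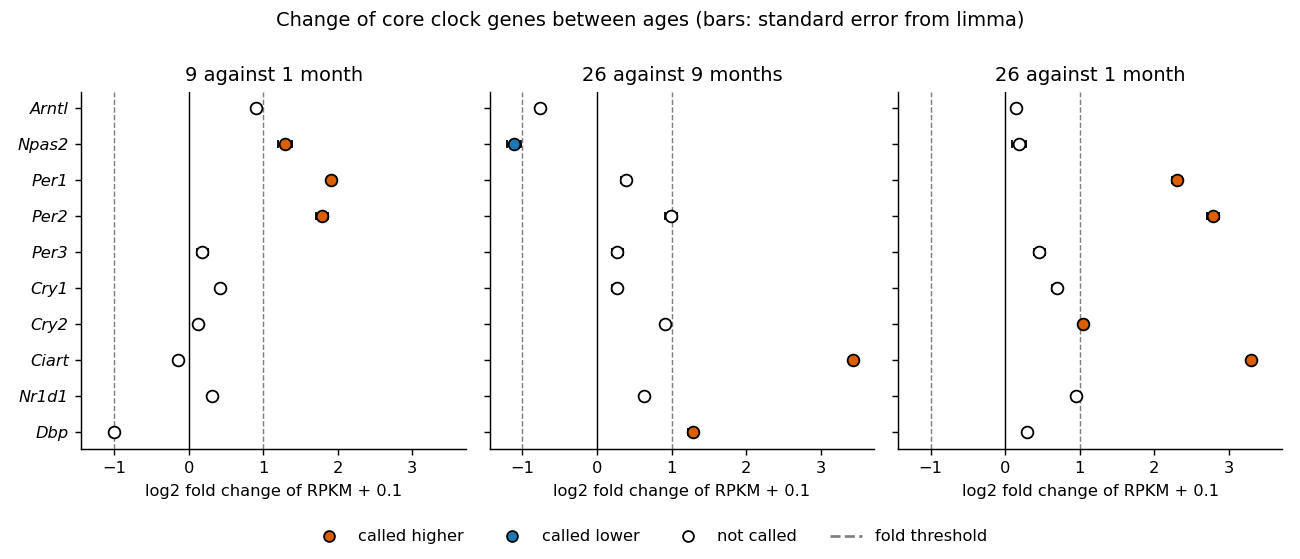
Log2 fold change of RPKM + 0.1 (horizontal axis) of each member in the comparisons of 9 with 1, 26 with 9 and 26 with 1 month, with bars for the limma standard error and dashed lines at the fold threshold of 1. Filled points passed the adjusted p and the threshold: Per1, Per2 and Npas2 in the first panel, Ciart, Dbp and Npas2 in the second, and Ciart, Per2, Per1 and Cry2 in the third, while the small values of Per3, Cry1 and Cry2 at left and of Arntl, Npas2 and Per3 at right change sign with the scaling.

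Ratios of an activator to a repressor within a library do not depend on a common scaling factor, though they do on corrections by length. The ratio of Arntl to Per1 was 4.06 ± 0.326 at 1 month, 1.89 ± 0.168 at 9 months and 0.835 ± 0.0409 at 26 months. That of Arntl to Per2 was 3.54 ± 0.447, 1.81 ± 0.0103 and 0.524 ± 0.0197. Against these PER genes Arntl therefore stood lower with each age, and the libraries of different ages did not overlap. Its ratios to the other 6 members compared were highest at 9 months: Arntl to Cry1 was 0.940 ± 0.0761, 1.32 ± 0.102 and 0.640 ± 0.0369, and Arntl to Cry2 was 0.350 ± 0.0274, 0.606 ± 0.0462 and 0.187 ± 0.00424. Arntl to Ciart differed most between 9 and 26 months, with libraries at 4.36, 3.97 and 4.37 at 9 months and at 0.210, 0.218 and 0.221 at 26 months, against 1.93 to 2.18 at 1 month. Arntl to Nr1d1, its own repressor, was 0.112 ± 0.00817, 0.172 ± 0.0171 and 0.0642 ± 0.00151, and Arntl to Per3 was 2.25 ± 0.244, 3.74 ± 0.180 and 1.79 ± 0.0939. Arntl to Dbp, a comparison with an output and not a repressor, was 0.255 ± 0.0257 at 1 month, 0.973 ± 0.0852 at 9 months and 0.231 ± 0.00519 at 26 months, with overlap between the young and the old libraries.

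**Figure D3:**
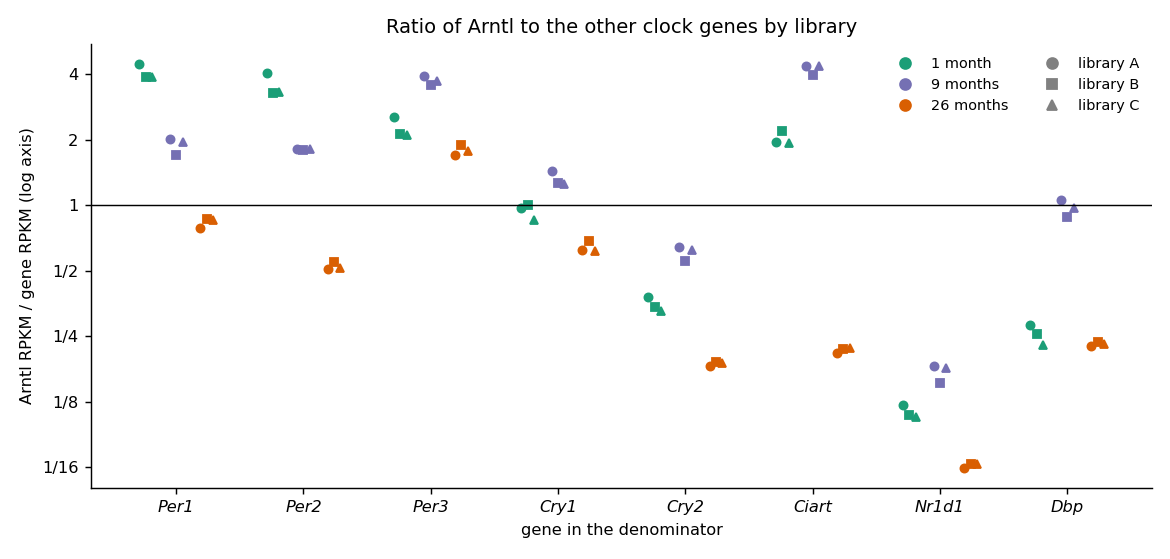
Ratio of Arntl RPKM to that of the gene named on the horizontal axis, 1 symbol per library, on a log axis to base 2 with a line at a ratio of 1. The ratios to Per1 and Per2 were lower at each later age (means of 4.06, 1.89 and 0.835 for Per1), whereas those to the other genes were highest at 9 months.

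The ratios of Npas2 had the same order, lower with each age against Per1 and Per2 and highest at 9 months against the others: Npas2 to Per1 was 0.533 ± 0.0843, 0.359 ± 0.0138 and 0.114 ± 0.010, and Npas2 to Ciart 0.263 ± 0.00959, 0.805 ± 0.0478 and 0.0297 ± 0.00312. Npas2 to Cry1 was 0.123, 0.251 and 0.0875, and Npas2 to Cry2 0.0459, 0.115 and 0.0257. As a score, the mean log2(RPKM + 0.1) of both activators minus that of the 7 repressors (Per, Cry, Ciart and Nr1d1) was −1.06, −1.28 and −1.27 at 1 month, −0.76, −0.79 and −0.74 at 9 months and −2.67, −2.72 and −2.67 at 26 months. The score was thus highest in adults and lowest in the old libraries, with age means of −1.20 ± 0.125, −0.76 ± 0.0284 and −2.68 ± 0.0307. The difference was 0.44 from 1 to 9 months and −1.92 from 9 to 26 months. Without Ciart the means were −1.34, −1.03 and −2.55, and without both cryptochromes the differences were 0.29 and −2.08. The score was given no test, since its members were chosen with their values known.

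Within the repressors the balance shifted as well. Ciart to Per2 was 1.76 ± 0.297 at 1 month, 0.428 ± 0.0216 at 9 months and 2.42 ± 0.0879 at 26 months. Per2 to Per1 was 1.15 ± 0.0508, 1.04 ± 0.0884 and 1.59 ± 0.0631, with overlap between 1 and 9 months only. Per2 to Cry1 was 0.268, 0.730 and 1.22, so that Per2 was the rarer transcript at the younger ages and the more abundant one at 26 months.

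The genes whose patterns were most like those of Ciart and of Arntl were sought among 6379 genes averaging 5 RPKM or more by Pearson's r of log2(RPKM + 0.1) over the 9 libraries. As these fall into 3 ages that share pools and processing, r mainly describes 3 levels and is given as a description. Closest to Ciart were Cd14 (r = 0.998), which encodes a lipopolysaccharide coreceptor and is in the macrophage list above, the glucocorticoid and clock regulated factor Klf15 (0.997), Rpa1 (0.997), Iqgap2 (0.997) and Sdc4 (0.997). Cd14 had means of 2.21, 2.21 and 27.7 RPKM at 1, 9 and 26 months, and Iqgap2 had 35.8, 31.4 and 125 RPKM. Closest to Arntl were Rab5b (0.996), the connexin 26 gene Gjb2 (0.995), Ywhag (0.994), Ahnak (0.993) and Slco1c1 (0.993). Gjb2 had 305, 740 and 336 RPKM, and the thyroid hormone transporter Slco1c1 had 3.37, 12.3 and 3.65 RPKM. Among the members, Arntl was most like Npas2 (r = 0.977) and least like Dbp (−0.929), and Ciart was most like Cry2 (0.982) and Nr1d1 (0.923).

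Other parts of the clock were read from a list of 22 partners and modifiers, all of them tested. Only Rorb was called higher from 9 to 26 months, and none lower, where 3.28% and 4.05% of all genes were. Rorb, a ROR family activator at the elements that REV-ERBα represses, had 0.575, 0.5 and 0.5 RPKM at 1 month, 0.9, 0.725 and 0.95 RPKM at 9 months and 2.15, 2.15 and 2.225 RPKM at 26 months (26 against 9 months: log2 fold change 1.25, limma adjusted p = 6.64e-06, 0.77 and not called with a pseudocount of 1 RPKM). From 1 to 9 months 3 of the 22, Clock, Sirt1 and Usp9x, were called higher, where 10.1% of all genes were. From 1 to 26 months Clock, Rorb and Sirt1 were called higher, also 3 of the 22, where 9.92% of all genes were. Medians of the list were 0.10, 0.46 and 0.53 for 26 against 9, 9 against 1 and 26 against 1 month, beside −0.03, 0.27 and 0.24 for all genes.

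Clock, the usual partner of BMAL1, had 1.825, 1.575 and 1.775 RPKM at 1 month, 4.575, 3.35 and 4.675 RPKM at 9 months and 3.575, 3.65 and 3.475 RPKM at 26 months. Library B at 9 months, which stood apart from A and C over abundant genes, was also the lowest adult library for Clock. The log2 fold change of Clock was 1.22 from 1 to 9 months (limma adjusted p = 1.32e-05), a call lost with a pseudocount of 1 RPKM (0.92), quantile normalization (0.74), median of ratios scaling (0.93) and the length trend removed (0.51). From 1 to 26 months it was 1.01, a call lost in 5 such settings (0.42 to 0.99) and without 1-month library B (0.95) or 26-month library B (0.99). Clock outnumbered Npas2 by a ratio of 3.77 ± 0.156, 3.33 ± 0.660 and 6.74 ± 0.819 at 1, 9 and 26 months. The deacetylase gene Sirt1 went from 0.392 ± 0.0629 RPKM at 1 month to 1.86 ± 0.465 at 9 months and 2.20 ± 0.164 at 26 months, and the deubiquitinase gene Usp9x had 2.65 ± 0.265, 6.89 ± 1.38 and 5.25 ± 0.115 RPKM. Without 9-month library B the log2 fold changes from 1 to 9 months were 1.37 for Clock, 2.19 for Sirt1 and 1.51 for Usp9x. The call of Usp9x was lost with quantile normalization (0.92) and the length trend removed (0.59).

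Of 18 tested outputs and other rhythmic regulators, 3 were called higher from 9 to 26 months and 0 lower, where 3.28% and 4.05% of all genes were. The list was drawn up of genes known to follow the clock in other tissues, so that these 3 do so is no result. Bhlhe40, an E-box repressor also called DEC1, had 22.375, 22.45 and 21.85 RPKM at 9 months and 63.525, 62.575 and 61.775 RPKM at 26 months, a 2.81-fold rise (log2 fold change 1.49, SE 0.0330, limma adjusted p = 4.79e-09) from a 1-month mean of 19.7 RPKM. Usp2, a deubiquitinase gene driven by the clock, had means of 20.8, 18.5 and 48.6 RPKM at 1, 9 and 26 months (2.61-fold higher at 26 than at 9 months), and Klf15 had 27.0, 26.0 and 64.2 RPKM (2.46-fold). Between 1 and 9 months these genes differed by 1.04-fold to 1.13-fold only. Bhlhe41 (DEC2) took another course, with 3.22 ± 0.0661, 7.77 ± 0.891 and 15.0 RPKM at the 3 ages. It alone of the list was called higher from 1 to 9 months, where 10.1% of all genes were. That call was lost with quantile normalization (0.85), median of ratios scaling (0.94) and the length trend removed (0.76). All 4 were called higher from 1 to 26 months, where 9.92% of all genes were. In that comparison Klf15 (0.98) and Usp2 (0.96) lost the call with median of ratios scaling, and Usp2 (0.90) also with the length trend removed. The medians of this list were 0.40, 0.24 and 0.66 beside −0.03, 0.27 and 0.24 for all genes.

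**Figure D4:**
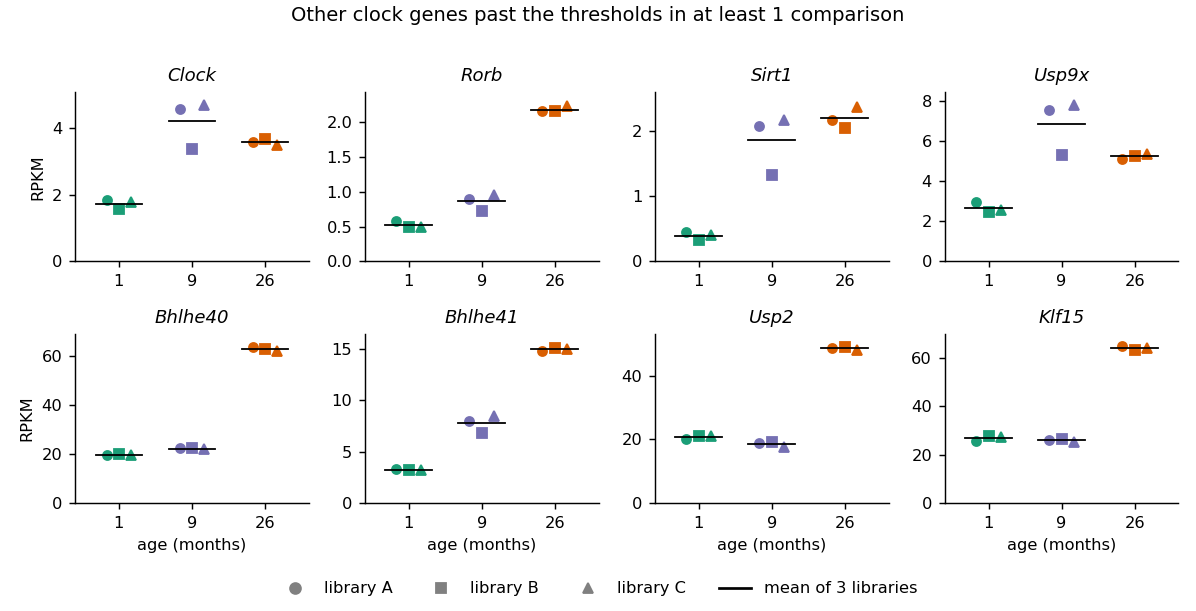
RPKM by library against age in months for the 8 genes of both other clock lists that were called in at least 1 comparison, with lines at the mean of 3 libraries and vertical axes from 0. Bhlhe40, Usp2 and Klf15 stood high at 26 months only (Bhlhe40 at 19.7, 22.2 and 62.6 RPKM), and Clock, Sirt1 and Usp9x were lower in library B than in A and C at 9 months, a step from 1 to 9 months that for Clock, Usp9x and Bhlhe41 stays below the threshold with quantile normalization.

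Relatives and counterparts of the members, chosen after their values were seen, were not called in any comparison. Nr1d2, the paralog of Nr1d1, had 16.9 ± 1.27, 20.7 ± 4.88 and 30.7 ± 0.402 RPKM at the 3 ages, and Tef, a PAR bZIP factor like Dbp, had 11.1 ± 0.368, 13.2 ± 0.496 and 19.0 ± 0.250 RPKM. Nfil3, which competes with DBP at D-boxes, had 3.88 ± 0.238, 6.86 ± 0.309 and 6.98 ± 0.189 RPKM. The ratio of Dbp to Nfil3 was 3.57 ± 0.330 at 1 month, 1.00 ± 0.0442 at 9 months and 2.42 ± 0.0697 at 26 months, without overlap between ages.

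Per1 is also known as an immediate early gene and as a target of glucocorticoids and of cAMP signalling, so lists of these responses were read beside it. Of 22 tested immediate early genes, 11 were called higher from 9 to 26 months and 1, Klf4, lower, where 3.28% and 4.05% of all genes were. The median of the list was 1.02 beside −0.03 for all genes, and 7 were called higher with a pseudocount of 1 RPKM. Fos went from 3.52 ± 0.175 to 19.2 ± 0.728 RPKM and Egr1 from 4.02 ± 0.30 to 22.9 ± 0.368 RPKM, whereas Per1 went from 3.53 ± 0.123 to 4.67 ± 0.142 RPKM. From 1 to 9 months, the step in which Per1 rose most, 5 of the 22 were called higher, where 10.1% of all genes were, and 0 lower, among them Fos from 1.46 to 3.52 RPKM. That count was 2 with a pseudocount of 1 RPKM, 3 with quantile normalization and 7 with a pseudocount of 0.01 RPKM. From 1 to 26 months 12 were called higher (8 to 13 over the alternatives run) and 0 lower, where 9.92% and 2.51% of all genes were. Of 14 glucocorticoid targets, 4 were called higher from 9 to 26 months (Fkbp5, Mt1, Mt2 and Nfkbia), 2 from 1 to 9 months (Ddit4 and Zbtb16) and 5 from 1 to 26 months, with 0 lower in each. In the same order 3.28%, 10.1% and 9.92% of all genes were called higher and 4.05%, 1.47% and 2.51% lower. Fkbp5, a chaperone gene induced by the glucocorticoid receptor, had 1.98, 2.54 and 7.21 RPKM at 1, 9 and 26 months. With quantile normalization or median of ratios scaling, the count from 1 to 9 months became 0 higher and 1 lower, and with a pseudocount of 1 RPKM or the length trend removed 1 higher. The count from 1 to 26 months became 3 with median of ratios scaling. Of 11 tested cAMP and CREB targets, 2, 3 and 3 were called higher from 9 to 26, 1 to 9 and 1 to 26 months, with Fos and Nr4a1 shared with the immediate early list, and 0 lower, where 3.28% (26 against 9 months), 10.1% (9 against 1 month) and 9.92% (26 against 1 month) of all genes were called higher. The 3 called from 1 to 9 months became 1 with a pseudocount of 1 RPKM, quantile normalization or median of ratios scaling and 2 with the length trend removed, and the 3 called from 1 to 26 months became 2 with a pseudocount of 1 RPKM. The part of these responses in the levels of the clock genes was not tested.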

How the data were processed

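Gene expression was read from 1 table of 9 libraries (3 each at 1, 9 and 26 months, 4 sequencing runs per library). The authors mapped paired reads to GRCm38 with CLC Genomics Workbench and deposited RPKM, in which every value is a multiple of 0.025 within a tolerance of 1e-06. The table used holds no read counts, so depth and counting error are unknown. Columns of the authors' p-values, fold changes and age means were not used, and a notes sheet that writes 28 months beside the 26-month columns was overridden by the labels. The labels name a SMARTer kit with Nextera libraries and Illumina sequencing, and trypsin where the study's methods name collagenase.

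limma 3.58.1 (R 4.3.3) was fitted to log2(RPKM + 0.1) of the 15806 genes that reached 0.1 RPKM in 3 or more libraries, with 1 mean per age and empirical Bayes with trend. A gene was called where the p adjusted by Benjamini and Hochberg over all tested genes was 0.10 or less and the log2 fold change reached 1 in size. The method was tested on simulated data. Members and lists were chosen with earlier results of these data known. All members were named, with up to 4 called genes of each list (by p, mean of at least 1 RPKM) and the 5 genes most like Ciart and Arntl, predicted genes left out. The alternatives were pseudocounts of 1 and 0.01 RPKM, no filter or a minimum of 1 RPKM, other scalings, removal of each library's trend with exon length, thresholds, a replicate block, averaging and leaving out each library. Coordinates came from GENCODE M21 and promoters from RefSeq. Python 3.11.15, pandas 2.3.3, numpy 2.4.6 and matplotlib 3.10.9 were used for the tables and plots.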

Additional observations from a re-analysis of the deposited data

How the results depend on the processing

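Read depth is not known from RPKM, and the libraries of an age may be technical repeats, so adjusted p-values may be too small. With near-identical libraries averaged, which left 5 samples, the counts of members called were unchanged except that Per2 brought those higher at 26 against 9 months from 2 to 3. The letters of the libraries did not pair the ages: deviations of same-letter libraries correlated by −0.0512 to 0.228, and with the letter as a replicate block the members called were 2 higher and 1 lower (26 against 9 months), 3 and 0 (9 against 1 month) and 4 and 0 (26 against 1 month), as without it. Over all genes the block moved the counts to 521 higher and 641 lower, 1595 and 232, and 1570 and 397. All 10 members passed the F-test in each of the 21 alternatives run for it, but 86.3% of all genes passed it in the main fit.

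For 26 against 9 months, 3 members instead of 2 were higher, Per2 being added, with a pseudocount of 0.01 RPKM, quantile normalization, median of ratios scaling or the length trend removed, and 2 to 3 when a library was left out. In that comparison 0 members were lower with a pseudocount of 1 RPKM or quantile normalization, and 8 were higher and 2 lower without the fold threshold. For 9 against 1 month, 2 members instead of 3 were higher, Npas2 being lost, with a pseudocount of 1 RPKM, quantile normalization or the length trend removed, and 1 member (Dbp) was lower with a pseudocount of 0.01 RPKM, quantile normalization, median of ratios scaling or the length trend removed, 0 to 1 were lower when a library was left out, and 8 were higher and 2 lower without the fold threshold. For 26 against 1 month, 3 members instead of 4 were higher, Cry2 being lost, with a pseudocount of 1 RPKM, quantile normalization, median of ratios scaling or the length trend removed, 3 to 4 when a library was left out, and 9 without the fold threshold.

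Signs turned for Per3 (−0.33, −0.11 and −0.42) and Cry2 (−0.11, −0.17 and −0.33) at 9 against 1 month and for Arntl (−0.20, −0.11 and −0.30) and Npas2 (−0.14, −0.037 and −0.14) at 26 against 1 month, under quantile normalization, median of ratios scaling and the length trend removed in turn. They also turned for Cry1 at 9 against 1 month with quantile normalization (−0.000132) and for Per3 at 26 against 1 month with the length trend removed (−0.055). The cause was not tested. Of 690 values of single members under the alternatives, 632 kept their sign and their side of the thresholds. Several alternatives cannot move a fold change, among them leaving out a library of the age not compared, a replicate block and changes of filter. Part of the 632 thus comes from settings in which only the adjusted p could change.

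The activator to repressor difference kept its sign throughout. For 26 against 9 months it was −1.46 and −2.01 with pseudocounts of 1 and 0.01 RPKM, −1.68 with Clock among the activators and −2.08 without the cryptochromes. For 9 against 1 month it was 0.23 with a pseudocount of 1 RPKM, 0.29 without the cryptochromes and 0.34 with the length trend removed. For 26 against 1 month it was −1.23 with a pseudocount of 1 RPKM, −1.20 with Clock, −1.79 without the cryptochromes and −1.58 with the length trend removed. Leaving out a library gave −1.94 to −1.90, 0.40 to 0.51 and −1.52 to −1.41 in the 3 comparisons.

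Over all genes, 519 were higher and 640 lower (26 against 9 months), 1594 and 233 (9 against 1 month) and 1568 and 396 (26 against 1 month). In the same order the counts were 136 and 175, 408 and 45, and 452 and 112 with a pseudocount of 1 RPKM, and 4591 and 5332, 8648 and 2746, and 8328 and 3346 without the fold threshold. They were 783 and 975, 2351 and 387, and 2226 and 607 with 0.01 RPKM, and 248 and 391, 1136 and 82, and 1052 and 203 with at least 1 RPKM required. For 9 against 1 month they were 531 and 464 after quantile normalization, 748 and 395 with median of ratios scaling and 629 and 296 with the length trend removed, and for 26 against 1 month 802 and 740, 927 and 692, and 882 and 509.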
